A study of Bos taurus with 8 samples.

Results

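The 4 arrays described here carry the deposited sample label grazing, 1 for each of 0, 1, 2 and 4 mo, out of 8 arrays in the series. On them, 144 of the 744 bovine miRNAs of the array design had the scanner software's detection flag on all 4 arrays, and these 144 miRNAs are the members whose later months were set against 0 mo. Each array held 1 pool of plasma exosomal RNA from 3 Japanese Shorthorn steers, in the second or the third year of life and raised on grass. By the labels, the steers of these 4 pools were kept on pasture from the start of the experiment, and those of the other 4 pools in a free-stall barn. Exosomes were pelleted from EDTA plasma by ultracentrifugation, which brings down other particles of like size and density too. On the arrays no steer was measured on its own, whereas the paper's qRT-PCR compared single animals. Several of the members, such as miR-2413, carry numbers that miRBase, the registry of miRNAs, gave to sequences first found in cattle.

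The paper's supplementary table of array values names the same 4 arrays as housed. Its main text likewise ascribes to housed cattle the composition at the start that the first of these arrays holds. For every miRNA above the undetected constant in the deposited table (163, 147, 160 and 158 miRNAs at 0, 1, 2 and 4 mo), the value differed by under 0.1% from that in the column headed A-1, A-2, A-3 or A-4, respectively, the columns of housed cattle, and at most 2 miRNAs met this in any other column. A change given below is thus that of grazing cattle when read by the sample labels and that of housed cattle when read by the table. The comparison with 0 mo uses the same arrays under both readings, so its values and signs do not turn. The comparison between the labels does turn its sign. The arrays are called labelled grazing throughout.

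MicroRNAs are short RNAs that pair with messenger RNAs and lower their translation or stability. Cells release them into blood inside exosomes and other particles, and most of the miRNAs in plasma are also abundant in blood cells and platelets, in vessel walls or in the liver. Muscle has a small set of its own, miR-1, miR-133 and miR-206 among them, which is known to appear in plasma after muscle damage.

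The probes of the miRNAs that moved farthest are shown first, because their letters bear on what a signal can mean. A probe is a DNA strand on the array that is complementary to the miRNA, written here 5′ to 3′ as in the scanner files, and the array design places each on the bovine build UMD_3.1. A strand given below is that of the probe, and the miRNA lies on the opposite one. Gene models of that build were not used here, so whether a position is exonic or intronic is not given. The probe of miR-215 lies at chr16:24305752-24305769 on the plus strand, and that of miR-192 at chr29:43731685-43731701 on the minus strand. Both probes share an unbroken run of 14 letters, in capitals, so signal of one miRNA cannot be fully told from that of the other.
miR-215: tgtCTGTCAATTCATAGgt
miR-192: ctggCTGTCAATTCATAG

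The 3 miRNAs below fell steadily and carry the letters CACAC in their probes, in capitals, some of them overlapping. Their probes lie at chr13:28799354-28799368 (miR-2304), chr18:63074675-63074689 (miR-574) and chr1:139318052-139318068 (miR-2288), all on the plus strand.
miR-2304: aCACACACaacCACAC
miR-574: CACACACtCACACACa
miR-2288: aaacCACACACctactac

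The next 4 probes belong to a rising miRNA that leukocytes and platelets are rich in, miR-223 (chrX:99936372-99936391, plus strand), and to 3 falling ones, miR-2413 (chr3:33702871-33702882, plus strand), miR-2407 (chr29:44088138-44088149, minus strand) and miR-494 (chr21:67569733-67569746, minus strand). Capitals mark G and C, whose share was 42.9% in the probe of miR-223 and 76.9% in that of miR-2413.
miR-223: tGGGGtatttGaCaaaCtGaC
miR-2413: aCCGCaGtCCCCC
miR-2407: CCaGCCCttCCCa
miR-494: GaGGtttCCCGtGta

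In the gene order of ARS-UCD2.0, MIR215 lies next to MIR194-1, MIR130B next to MIR301B and MIR494 among other miRNA genes of its cluster. MIR223 lies next to MSN, MIR2413 next to CSF1 and MIR2407 between CAPN1 and SLC22A20.

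At 0, 1, 2 and 4 mo the detection flag was set for 167, 149, 163 and 160 miRNAs. The summed signal of the detected miRNAs lay between 45507 and 63558 on the 4 arrays, and the 144 members held at least 99.5% of it on each. The scanner software's error estimate was 8.99% to 9.86% of the signal as a median over detected miRNAs. It covers the spots of 1 array only, because no pool was measured again. The 4 arrays lay in column 2 of 1 slide, with the months in rows 1 to 4, so that month and place on the slide cannot be told apart. Signals were divided by the 90th percentile of their array over all 744 miRNAs (31.2 to 56.1), and changes are log2 differences of these scaled signals from 0 mo.

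With 1 array per month there was no replicate and hence no test of a change from 0 mo. A member was called where it changed by at least 2-fold, a log2 change of 1 in size, and steady where all 3 later months lay past 1.5-fold in 1 direction. At 1 mo, 5 of the 144 members rose (3.47%) and 10 fell (6.94%). Rises numbered 4 (2.78%) and falls 9 (6.25%) on the 2 mo array, whereas on the 4 mo array 2 members rose (1.39%) and 3 fell (2.08%). The 3 comparisons share the 0 mo array, so they are not independent of each other. Steady rises numbered 1 (0.694%) and steady falls 11 (7.64%). At 1 or more of the 3 months, 8 of the 144 members rose and 11 fell past 2-fold. These shares are the background for the counts of 2-fold and steady changes given further on.

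Of the 3 later months, the change was largest in size at the first for 69 members, at the second for 56 and at the last for 19. Its median size at 1, 2 and 4 mo was 0.44, 0.39 and 0.21, where the error estimate of a single change had a median of 0.19. More than 2 such estimates from 0 were 73, 70 and 28 members at these months. The 4 mo array was thus the one nearest to 0 mo, and the difference between 1 mo and 4 mo, with a median size of 0.26, was larger than that between 0 mo and 4 mo.

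**Figure D1:**
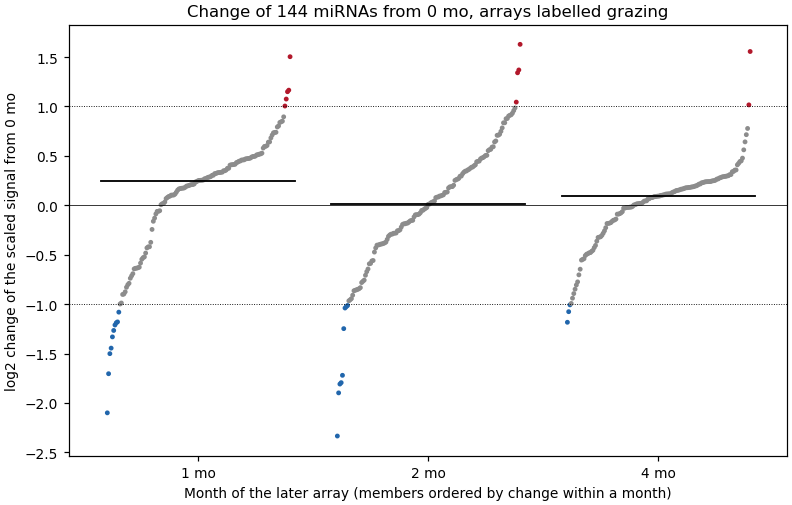
Each point is 1 of the 144 members, placed by its log2 change of the scaled signal from 0 mo (y axis) and ordered by that change within each later month (x axis). Dotted lines mark 2-fold, black bars the median, red points rises and blue points falls past 2-fold. The points of 4 mo lie closer to 0 than those of 1 and 2 mo.

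The 3 later months had 1 sign for 90 members, of which 56 were higher and 34 lower than at 0 mo (38.9% and 23.6% of the 144), the background for the counts of members that were higher or lower at all 3 months. The median of the mean change over the 3 months was 0.14, and 65.3% of members had a mean above 0. That share depended on the scaling. It was 75% when the arrays were scaled to the 75th percentile over all miRNAs and 42.4% when that percentile was taken over the members, and the median moved by 0.22 and -0.18. A small rise or fall that is shared by most members was therefore not determined by these arrays. The 10 largest rises and 10 largest falls described next lay on the same side of 0, and of the median of all members, under every scaling and signal tried.

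miR-215 was the 1 member past 1.5-fold above 0 mo at every later month. Its signal was 20.7 on the 0 mo array (error estimate 2.66) and 45.2, 54.0 and 51.3 on the later ones. All 3 later signals were more than 2 times the first, and they lay closer to each other than to it. The scaled change was 1.5, 0.92 and 1.56, and its mean of 1.33 with an error estimate of 0.20 is a 2.51-fold rise. miR-215 is expressed in the intestine, liver and kidney. It was also steadily higher under every other setting, apart from normexp background correction, where its mean change was 0.60, and a minimum of 30 for the signal at 0 mo, which it does not reach.

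miR-192, whose probe shares a run of letters with that of miR-215 and which is an abundant liver miRNA, was the faintest member at 0 mo. Its signals were 4.70, 7.61, 8.26 and 8.01 at 0, 1, 2 and 4 mo, and its changes were 1.08, 0.35 and 1.02. With an error estimate of 0.47 the mean change of 0.81 did not reach 2 estimates. The other liver miRNAs of the list were not members. miR-122, the major miRNA of hepatocytes, was detected at 0 mo alone with a signal of 6.72, miR-194 at 2 mo alone with 6.51, and miR-885 on 3 arrays.

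miR-223, a miRNA of neutrophils, monocytes and platelets, had the largest signal among the 10 rises. Its signals at 0, 1, 2 and 4 mo were 532, 905, 1859 and 513. The signals of 1 and 2 mo stood above the other months, whereas those of 0 and 4 mo were nearly the same. The scaled change was 1.15, 1.34 and 0.20 in the order of the months, with the same error estimate of 0.15 for each. The 2 probes of miR-223 gave mean changes of 0.87 and 0.91.

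miR-130b, of the miR-130 family, rose at 2 mo. Its signals were 24.9, 28.5, 106 and 22.1 in the order of the months, so that the 2 mo array stood apart from the other 3. The change there was 1.63 (error estimate 0.19), against 0.58 at 1 mo and 0.08 at 4 mo. miR-30d rose by 1.00 at 1 mo and was 0.88 higher at 2 mo and 0.21 higher at 4 mo.

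The remaining 6 of the 10 largest rises did not reach 2-fold at any month. They were miR-17-5p and miR-19a of the miR-17-92 cluster, which is known for promoting cell proliferation, miR-148a, miR-24-3p, miR-423-5p and miR-21-5p, and their mean changes ran from 0.57 for miR-17-5p down to 0.50 for miR-21-5p. Each was lower at 4 mo than at its highest month. For miR-21-5p, abundant in leukocytes, 4 probes gave mean changes between 0.48 and 0.54.

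Other members that rose past 2-fold at a single month were miR-345-5p at 1 mo (1.17) and miR-22-3p (1.04) and miR-221 (1.37) at 2 mo. miR-221, a miRNA of vessel walls and blood precursor cells, had signals of 17.9, 22.5, 63.9 and 14.9, with 2 mo far above the rest, and its 4 mo change was -0.02.

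**Figure D2:**
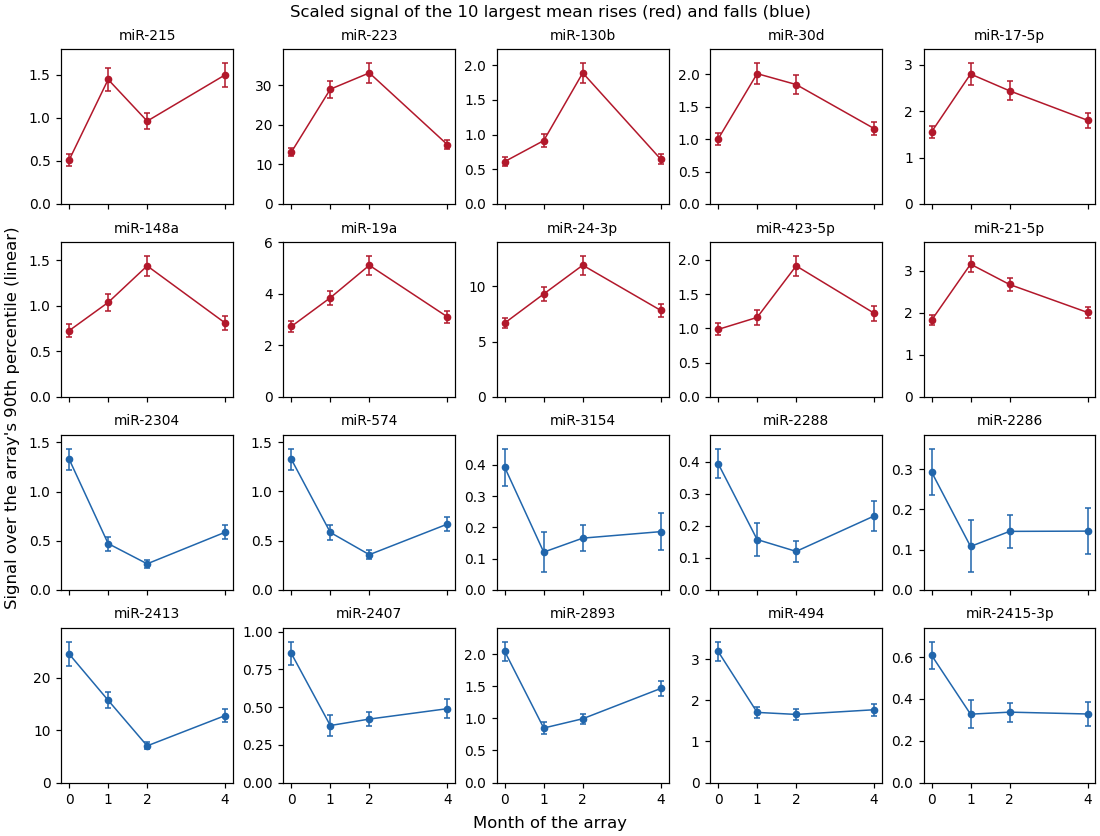
Each panel shows 1 of the 10 largest mean rises (red) or falls (blue), with the month on the x axis and the signal over the array's 90th percentile, linear and from 0, on the y axis. Bars are the scanner software's error estimates on 1 array each. Except for miR-215, the rising miRNAs return towards their 0 mo level at 4 mo. The falling ones stay below that level, which is not a finding, because rises and falls were chosen for 1 sign at all later months. A member that fell and then came back to its 0 mo level or above could not be among them.

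The 11 steady falls were miR-2304, miR-574, miR-3154, miR-2288, miR-2286, miR-2413, miR-2407, miR-494, miR-2415-3p, miR-2898 and miR-2881. Of these, 8 are numbered as cattle miRNAs, whose functions are little known. Cattle-numbered miRNAs made up 31 of the 144 members, so that 8 of 31 fell steadily, against 3 of the other 113. The median share of G and C in the probe was 76.9% for the 31 and 50% for the other 113. The part of base composition in this contrast was not tested. In all 11 the change stayed below 0 at the 3 later months under every scaling and signal. The number past 1.5-fold throughout was 4 of the 11 when scaled to the 75th percentile over all miRNAs, 5 without scaling and 3 with normexp correction. The probes that could be measured separately had the same sign in each of the 7 that had 2 such probes. Over all members with more than 1 such probe, the sign was the same in 98 of 104. These probes lie on the same arrays by which the falls were chosen.

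miR-2304 had the largest fall. From 54.1 on the 0 mo array (error estimate 4.31), its signal went to 14.7, 14.8 and 20.1, with all later months below the first by far more than the error estimate. The changes were -1.50, -2.33 and -1.18, and the mean of -1.67 with an error estimate of 0.17 is a 3.19-fold lower level. miR-574 ran alongside it, with signals of 54.1, 18.2, 20.0 and 22.9 and changes of -1.19, -1.90 and -0.99. miR-2288 was fainter, at 16.1, 4.90, 6.73 and 7.90, and changed by -1.33, -1.72 and -0.77. Its error estimate at 1 mo was 1.64. The 1 probe of it that could be measured gave a mean change of -0.86, against -1.28 from the total signal.

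These 3 were also the falling ones with CACAC in the probe, a feature that was noticed after their values had been seen. The letters, read in the probe as written, occurred in the longest probe of 23 of all 744 miRNAs (3.09%) and of 4 members (2.78%). The fourth was let-7b, of the let-7 family that is abundant in most tissues, whose mean change was 0.12. Over the other members the median was 0.15. The part of these letters in the falls was not tested.

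miR-2413 was the brightest of the steady falls. The signal was 997 at 0 mo and 490, 393 and 437 at 1, 2 and 4 mo, so that each later signal was less than 0.5 of the first. Scaled, it fell by 0.64, 1.81 and 0.94 on the log2 scale, and its 2 probes gave mean changes of -1.24 and -1.13. miR-494, of the imprinted miRNA cluster of bovine chromosome 21, had signals of 130, 53.3, 93.0 and 60.6 and an even fall, with changes of -0.90, -0.94 and -0.85.

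miR-2407 fell by 1.18, 1.03 and 0.81. miR-2415-3p (-0.90, -0.85 and -0.89), miR-2898 (-0.99, -0.84 and -0.70) and miR-2881 (-0.63, -0.91 and -0.65) stayed under 2-fold at every month. miR-3154 and miR-2286 rested on faint signals, 3.76 and 3.36 at 1 mo, the latter the lowest signal of any member. Their mean changes were -1.34 and -1.16, with error estimates of 0.39 and 0.47. miR-2893 was among the 10 largest mean falls but not steady, since it changed by -1.27, -1.04 and -0.48.

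Outside that group, miR-2373-3p changed by -2.10 and -1.79 at 1 and 2 mo, from a signal of 40.3 to 7.22 and 16, and was back at 34.6 and a change of 0.03 at 4 mo. miR-2412 and miR-2410 fell past 2-fold at 1 mo only (-1.21 and -1.08). On the 1 mo array miR-2412 gave 1327, against 4002, 4876 and 4472 on the others, and without that array its mean change turned from -0.33 to 0.11.

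Base composition of the probe moved with the change. Of the 52 members whose longest probe had at least 60% G and C, 29 were lower and 7 higher than 0 mo at all 3 later months, with a median mean change of -0.38. Of the other 92 members, 5 were lower and 49 higher, with a median of 0.24. The 11 steady falls had probes of 11 to 18 letters with a median GC share of 66.7%, and the 10 largest rises 15 to 21 letters with 43.7%. On the arrays labelled housed the median mean change of the members with GC-rich probes was -0.39 and that of the others 0.09, so the division by base composition was present under both labels. Its part in the falls was not tested. Of the steady falls, miR-2304 and miR-574, both at 50%, miR-2288 at 44.4% and miR-494 at 53.3% fell without a GC-rich probe.

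**Figure D3:**
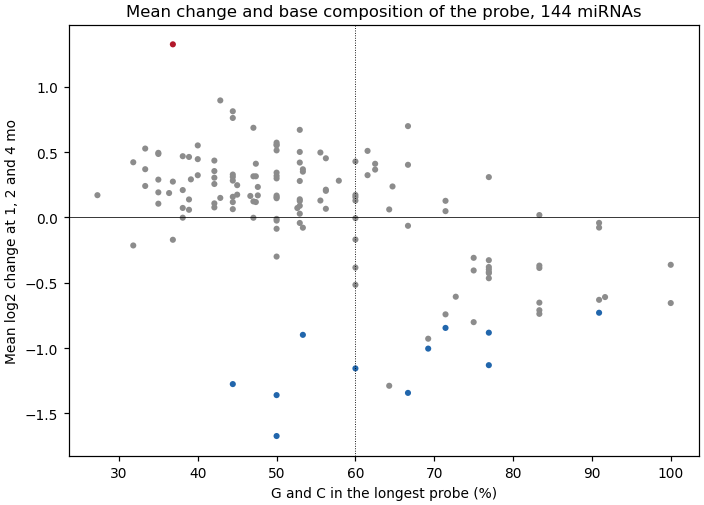
Each point is 1 of the 144 members, with the share of G and C in its longest probe on the x axis and its mean log2 change at 1, 2 and 4 mo on the y axis. Blue marks the 11 steady falls, red miR-215, and the dotted line 60%. Most points to the right of the line lie below 0.

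The composition of the signal was led by few entries. The most abundant entry, miR-2478, whose sequence resembles a fragment of a transfer RNA, held 33.6% of the detected signal at 0 mo (error estimate 2.81) and 40.2%, 31.8% and 38.5% later, with error estimates of 2.68 to 3.38. Its changes of 0.31, -0.40 and 0.29 had no common sign. miR-1260b, another tRNA-like entry, held 9.48%, 11.5%, 8.75% and 10.9%. Shares of signal are not numbers of molecules, since probes bind with different strength.

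By contrast, the GC-rich entries miR-1777b and miR-1777a held less at each later month. miR-1777b went from 6.70% (error estimate 0.476) to 4.32%, 4.68% and 4.28%, and miR-1777a from 4.87% to 3.22%, 3.36% and 3.23%. Their mean scaled changes were -0.66 and -0.63. With quantile normalization, which fixes the values of the top ranks, that of miR-1777b turned to 0.16. miR-2305, miR-1584-5p and miR-2413 of the 10 most abundant members were likewise lower at all 3 months, by means of -0.61, -0.74 and -1.13, and miR-1246 had a mean of -0.30, which quantile normalization turned to 0.26. The endothelial miR-126-3p, with 2.44% at 0 mo, changed by 0.24, -0.19 and 0.30. The 20 most abundant miRNAs held 84.3% at 0 mo and 83.5%, 79.6% and 84.9% later, and 18, 17 and 18 of them were those of 0 mo.

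The lists of miRNAs that mark cell types are given by their counts and medians, beside a median of 0.14 and a share of 38.9% higher at all 3 later months over all 144 members. Among the platelet and megakaryocyte miRNAs 6 of 7 were members, and 5 were higher at all 3 later months, with a median mean change of 0.50 between 0.12 for miR-126-3p and 0.90 for miR-223. For the myeloid and pan-leukocyte miRNAs these numbers were 6 of 7, 6 and 0.49, and 3 of those 6, miR-223, miR-21-5p and miR-24-3p, are on both lists. Of the platelet list, these 3 alone rose in mean by more than 2 error estimates, whereas all 6 of the myeloid list did. By month, the medians of the platelet list were 0.46, 0.69 and 0.19, and together its members held 4.03%, 5.71%, 6.99% and 4.52% of the signal at 0, 1, 2 and 4 mo. Of that signal, miR-223 by itself held 0.93%, 1.99%, 2.92% and 0.99%. Both lists had medians above 0 under every setting, from 0.26 to 0.72 for the platelet list and from 0.31 to 0.71 for the myeloid list. Of the platelet list miR-223 and miR-22-3p rose past 2-fold at a month, and of the myeloid list miR-223 alone. Over all 144 members, 8 did so.

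All 7 red cell miRNAs were members, with a median mean change of 0.06. Of these, 1 was higher at all 3 months (miR-92a, with a mean of 0.41) and 0 were lower throughout. miR-451 and miR-144, which developing red cells make in large amounts, had mean changes of -0.17 and -0.21 and were lowest at 2 mo, at -0.59 and -0.64. The signal of miR-451 was 807, 697, 739 and 638 at the 4 months. Since the list medians at 1, 2 and 4 mo were 0.18, -0.34 and 0.16 and the list median turned to -0.12 at its lowest setting, no direction is given for the red cell list.

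Of 7 lymphocyte miRNAs, 4 were members, with a median of 0.05 and 0 with 1 sign at all later months. miR-150, the miRNA of mature lymphocytes, gave 33.0, 25.9, 40.5 and 29.0 and changed by 0.03, -0.17 and 0.06, and miR-155 by 0.01, -0.18 and -0.08. The 4 endothelial miRNAs had a median of 0.31, and miR-222 (0.51, error estimate 0.67) and miR-221 (0.69) lay above miR-126-3p and miR-126-5p (-0.00). Of the 7 muscle miRNAs, 0 were detected on any of the 4 arrays.

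**Figure D4:**
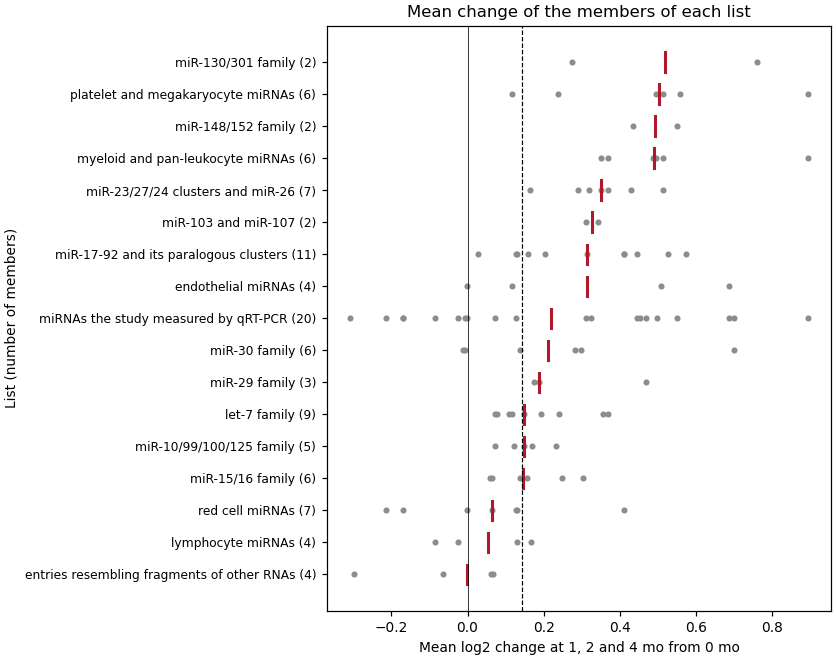
Each grey point is a member of a list, placed by its mean log2 change at 1, 2 and 4 mo (x axis), and red bars are list medians. The dashed line marks the median of all 144 members, 0.14. The medians of the platelet and myeloid lists lie to its right and those of the red cell and lymphocyte lists to its left.

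The miRNA families, whose members share sequence or gene clusters, are given in the same way. The 9 members of the let-7 family had mean changes from 0.07 (let-7g) to 0.37 (miR-98), with a median of 0.15, and 4 were higher at all 3 months. The medians of the let-7, miR-15, miR-10 and miR-29 family lists fell below 0 under 1 other scaling or more. For the miR-23/27/24 clusters with miR-26, all 7 members were higher at all 3 months with a median of 0.35, and for miR-17-92 and its paralogs 8 of 11 with a median of 0.32. Those medians stayed above 0 under every setting, at 0.17 and 0.13 or more. Of the miR-30 family, miR-30d rose, and the median of its 6 members was 0.21. miR-103 and miR-107 had mean changes of 0.31 and 0.34, and miR-148a and miR-148b 0.55 and 0.44.

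Members whose probes lie within 10 kb of each other can be compared as products of neighbouring genes. In the miR-17-92 cluster, at chr12 of UMD_3.1, 7 members spanned 750 bases and had mean changes of 0.57 (miR-17-5p), 0.03 (miR-17-3p), 0.16 (miR-18a), 0.53 (miR-19a), 0.41 (miR-20a), 0.45 (miR-19b) and 0.41 (miR-92a). The lowest of these, miR-17-3p, had an error estimate of 0.51 and was among the faintest. The cluster of miR-24-3p, miR-27a-3p and miR-23a on chromosome 7 had means of 0.51, 0.35 and 0.37. miR-30d (0.70) and its neighbour miR-30b-5p (0.28) on chromosome 14 were 0.42 apart, more than 2 times either error estimate. miR-19b and miR-92a have a further gene copy on the X chromosome, so their signal is not of 1 cluster alone.

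The list of miRNAs chosen for qRT-PCR held 21 entries, of which 20 were members and miR-489 was not. They were chosen on these arrays, so their direction is not independent evidence. Their median mean change was 0.22, with 8 higher and 1 lower at all 3 later months. Past 2-fold at some month rose 3 of the 20, miR-223, miR-221 and miR-30d, against 8 of all 144 members. The 1 that was lower throughout was miR-2888, at -0.53, -0.26 and -0.14.

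Detection added little to these changes. Of the 744 miRNAs, 562 were detected on 0 of the 4 arrays, 23 on 1, 5 on 2 and 10 on 3. The brightest of the miRNAs left out was miR-188, with 23.5 at 0 mo and no flag at 1 mo. Detection was lost at all 3 later months for 11 miRNAs and gained at all 3 for 1, miR-145, whose signal was 4.77 at 0 mo and 6.02 to 6.76 later. The 5 brightest of the lost ones were miR-2313-5p, miR-2284d, miR-2486-5p, miR-664 and miR-2891, with signals of 18.2, 17.7, 15.8, 14.9 and 12.7 at 0 mo. Against the lowest scaled signal with a flag, or the miRNA's own signal where that was higher, taken as a mean over the 3 later arrays, miR-2313-5p was at least 4.64-fold lower and miR-2891 at least 3.25-fold. Neither these 2 nor miR-2284d and miR-664 were detected on any array labelled housed, and miR-2486-5p was detected on 1. Detected at 2 mo alone were 6 miRNAs, at 4 mo alone 5 and at 1 mo alone 1.

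The arrays labelled housed, of the same months and slide, are the only background for a change over time that is not tied to the label. Their 0 mo array was brighter than the rest, with a summed signal of 157696 and 226 miRNAs detected. Their later arrays had 62438 to 90951 and 166 to 185. Every change labelled housed, and every difference between the labels, draws on that 0 mo array. On the arrays labelled housed, 143 of the 144 members were detected on all 4, and miR-2304 was not. On the arrays labelled grazing, 56 of those 143 were higher at all 3 later months, and on the arrays labelled housed 27 of the 56 were higher throughout as well, 13 lower throughout and 16 mixed. Over all 143, 49 (34.3%) were higher and 47 (32.9%) lower throughout on the arrays labelled housed. Of 33 that were lower throughout on the arrays labelled grazing, 21 were lower throughout on the others, 1 was higher and 11 were mixed. Among the 10 steady falls that could be compared, 5 were lower at all 3 months labelled housed, and 1 of them past 1.5-fold at each. Of all 143, 15 (10.5%) were lower by more than 1.5-fold at each of these months.

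miR-215 had changes of 0.72, 0.84 and 0.58 labelled housed, so it was higher at all later months under both labels. miR-223 changed there by 0.51, 0.22 and 0.06. miR-130b was lower there at every month, by -0.88, -0.72 and -0.80, and miR-574 (-0.32, 1.11 and -0.50) and miR-2288 (0.15, 0.68 and 0.10) did not fall steadily. Platelet and myeloid list medians were -0.01 and 0.05 labelled housed, and the red cell median 0.55.

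Whether mean changes differed between the labels was tested with limma on the 143 members detected on all 8 arrays. No member had an adjusted p under 0.05 in either direction (0%, against 8 with an unadjusted p under 0.05). miR-2406 and miR-2412 came closest, with differences of 2.31 (standard error 0.54) and 2.21 (0.53), labelled grazing minus labelled housed, and an adjusted p of 0.0555 from limma for both. The mean changes behind them were 0.33 and -1.99 for miR-2406 and -0.33 and -2.53 for miR-2412, so that both differences rested mainly on the arrays labelled housed.

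For miR-130b the difference was 1.56 (standard error 0.50), with an adjusted p of 0.194 from limma. When limma let the variance follow the mean level, 2 members passed, miR-130b and miR-2406, with adjusted p of 0.00208 and 0.00567. Over all settings the adjusted p of limma ran from 0.00208 to 0.982 for miR-130b and from 0.00567 to 0.976 for miR-2406. The difference was -1.58 (0.50) for miR-2288 and -1.46 (0.69) for miR-574, with adjusted p of 0.194 and 0.791 from limma, and 0.61 (0.44) for miR-215 with 0.791. All these differences take the opposite sign when the groups are read by the paper's table. The fit had 2 residual degrees of freedom. To these limma added the spread over all tested members, with a weight of 13.0 degrees of freedom. When the variance followed the mean level, that weight was infinite. The terms of the fit match the first array of each label exactly, so its spread is that of the gap between the labels across the later months. These are months of pools of the same steers. The p-values thus hold no measured spread of the first arrays, from which every change was taken. They do not give the full uncertainty of a change in these pools, and they do not describe other cattle.

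**Figure D5:**
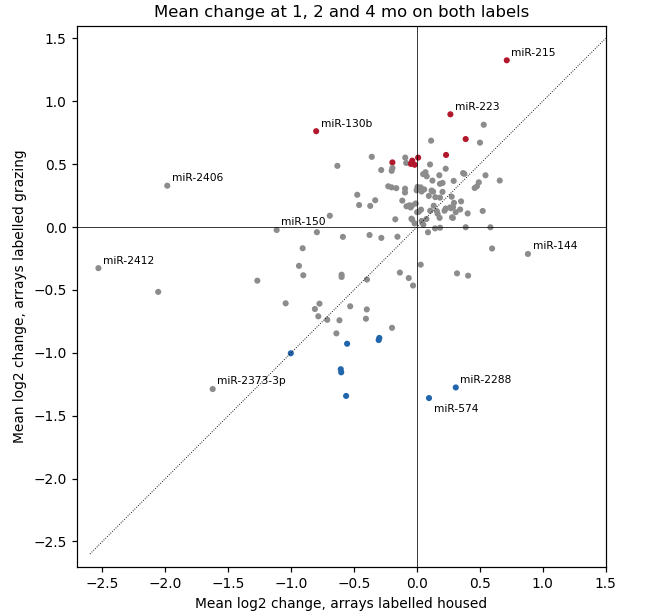
Each point is 1 of the 143 members detected on all 8 arrays, with its mean log2 change at 1, 2 and 4 mo on the arrays labelled housed (x axis) and labelled grazing (y axis). Red and blue are the 10 largest rises and the 9 measurable of the 10 largest falls on the latter, and the dotted line marks equal change. miR-215 lies above 0 on both axes and miR-130b on opposite sides.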

How the data were processed

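The authors hybridized 1 pool of plasma exosomal RNA per label and month to a custom 1-colour Agilent array and read it with the scanner software Agilent Feature Extraction (version 10.7.3.1, per the labels). Background-subtracted intensity values in the deposited scanner output had no normalization across arrays. Values of the table deposited for the whole series are a ratio on a linear scale, signal over a factor that is constant on an array, without centring. Its direction is that of signal, and the set of values behind its factor is unknown. The median of its columns, the constant of undetected miRNAs, was 0.00187, 0.00257, 0.00135 and 0.00241 for the labelled grazing arrays and 0.000664, 0.000926, 0.00149 and 0.000915 for the labelled housed ones, at 0, 1, 2 and 4 mo. Of its columns 8 were used and 0 left out, and of its 743 entries 730 matched by name.

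For the report, total signals per miRNA were scaled to the 90th percentile over all miRNAs of an array and taken to log2, with no floor. Groups came from the labels. The error of a change combines the scanner software's error estimates of its arrays, and no p was computed for a change from 0 mo. The test of the labels against each other used limma 3.58.1 (R 4.3.3; terms for each month, for the label, and for later months labelled grazing, with Benjamini-Hochberg adjustment at 0.05), a fit that was tested on simulated data. Other values were computed with Python 3.11.15, numpy 2.4.6 and pandas 2.3.3.

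Named were the 10 largest mean rises and falls with 1 sign at all later months and a mean over 2 times its error, the 10 most abundant at 0 mo, the miRNAs measured by qRT-PCR, members of the lists, the 5 brightest with detection lost or gained, and clusters within 10 kb. Members named for a 2-fold change at 1 month or for the difference between the labels were added after their values were seen. The members and lists were chosen with earlier results of these data known. Alternatives were 6 scalings, mean spot signals, normexp correction with an offset of 50, the series table, filters and leaving out a month. The number of arrays limits the precision. Coordinates are where the array design puts a miRNA's longest probe, as printed there. Counted with both ends, they span fewer bases than the probe has letters, so their ends are not exact.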

Additional observations from a re-analysis of the deposited data

How the results depend on the processing

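Counts of members past a fold moved with the scaling, the background correction and the months used. The numbers that follow are rises and falls past 2-fold at 1, 2 and 4 mo, where the values reported were 5 and 10, 4 and 9, and 2 and 3. Scaled to the 75th percentile over all miRNAs, the counts were 13 and 6, 30 and 5, and 1 and 6, with 2 steady rises and 4 steady falls. With that percentile over the members, rises were 1 at 1 mo and 1 at 4 mo, and falls 18, 22 and 5. Scaling to let-7g gave 1 rise and 16 falls at 1 mo, and 1 and 5 at 4 mo. The summed signal gave 19 and 5 at 2 mo, 1 and 5 at 4 mo and 2 steady rises. Without scaling they were 1 and 26, 26 and 5, and 1 and 9, with 2 steady rises and 5 steady falls. Normexp correction gave 0 and 1, 1 and 2, and 0 and 0, with 0 steady rises and 6 steady falls. A signal over 3 times its error on all 4 arrays, used in place of the detection flag, gave 6 falls at 1 mo and 1 at 4 mo. Under that rule miR-2286, miR-2288 and miR-3154 were no longer among the steady falls, and miR-885, not a member by the flag, was added. Of members with at least 30 at 0 mo, 2 rose and 6 fell at 1 mo, 1 rose at 2 mo, 0 rose and 1 fell at 4 mo, and 0 rose and 7 fell steadily. Without the 2 mo array 2 rose steadily, miR-192 and miR-215, and without the 4 mo array 10 rose and 21 fell steadily, the 11 steady falls among them. The difference between the labels was called for 2 members when limma used a trend and for 0 in the other 11 settings. Its median over the members was 0.15 as reported, 0.72 without scaling and -0.18 when scaled to the summed signal. Of 128 alternative values of the counts, 77 lay within 1.5 times the value reported. With a signal over 3 times its error on all 4 arrays in place of the flag, the number of members was 142. It was 97 when most spots had to be well above background. No mean change of a named miRNA past 2-fold changed its sign, but of all 97 named miRNAs 40 had a mean of the other sign under at least 1 setting. Median changes of 7 of the lists changed sign under at least 1 setting. The causes of these shifts were not tested. Member signals went down to 3.36, for miR-2286 at 1 mo, with an error estimate of 2.02.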
